A study of Mus musculus with 6 samples.

Results

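The lysosomal gene set followed here held 42 genes, chosen by name from a deposited expression table of 17450 gene symbols: 18 acid hydrolases, 3 soluble proteins of the lysosome interior that are not enzymes, 6 membrane proteins, 12 subunits of the vacuolar proton pump and 3 transcription factors of the TFEB family. Cathepsins were left out of the set. All 42 were in the table and all 42 had at least 1 FPKM (fragments per kilobase, relative to all mapped fragments of that library) in at least 3 of the 6 libraries, the filter for testing. RNA was sequenced from MLECs, endothelial cells isolated from mouse lung and cultured, in 3 libraries of HEY1-3KR KI and 3 of HEY1-WT KI. Both genotypes are labelled as a Hey1 knockout (Hey1 iEC-KO) with a knock-in of HEY1 (iEC-KI) in its 3KR or its WT form. HEY1 is a Notch-induced transcriptional repressor. Which of the cells lacked Hey1 or carried the knock-in was not tested. No treatment was given, and the cells grew in endothelial medium with serum. Neither the Cre driver, the age and number of the mice, the purification of the cells nor the meaning of 3KR is stated in the labels. The study is about SUMOylation of HEY1 in angiogenesis, and the comparison asks how the 3KR form changes the transcriptome.

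Lysosomes are acidic organelles in which hydrolases break down glycogen, glycosaminoglycans, lipids and proteins delivered by endocytosis and autophagy. A proton pump, the V-ATPase, acidifies them: its membrane-embedded V0 part carries protons and its cytosolic V1 part hydrolyses ATP. TFEB, TFE3 and MITF are basic helix-loop-helix factors that bind E-boxes in promoters of many lysosomal genes, where a longer form of the box is called the CLEAR element, and the kinase mTORC1 holds TFEB in the cytoplasm when nutrients are plentiful. HEY proteins also bind E-box type sequences.

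Hey1 itself read 5.71, 5.24 and 4.87 FPKM in HEY1-3KR KI and 2.21, 2.16 and 2.25 FPKM in HEY1-WT KI. The labels do not say whether the knock-in transcript is counted under this name, so the value does not check the genotypes. Column sums of FPKM lay between 258650 and 265967, and read totals are not given. Across all tested genes, libraries of 1 genotype correlated at 0.994 to 0.996 and libraries of different genotypes at 0.96 to 0.964. Markers of several cell types were detected. Summed FPKM of 15 pan-endothelial markers was 448 to 461 in HEY1-3KR KI and 267 to 281 in HEY1-WT KI, that of 18 macrophage and monocyte markers 6213 to 6494 and 4568 to 4678, and that of 10 fibroblast markers 1143 to 1159 and 589 to 596, in the same order of genotypes. Endothelial markers were thus detected, with Cdh5 (VE-cadherin) at 133 FPKM in HEY1-3KR KI and 77.7 FPKM in HEY1-WT KI, but they summed to less than macrophage markers. Lyz2 (lysozyme, a macrophage product) averaged 3482 FPKM in HEY1-3KR KI and 3138 FPKM in HEY1-WT KI, and the fibroblast collagen Col1a1 676 and 317 FPKM in the same order, so known markers of cells other than the labelled type were abundant in both genotypes. The labels tie no library to its own mouse or culture. P-values therefore measure the spread between these libraries alone, which may be technical, and any batch that coincides with genotype cannot be told apart from it.

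Most lysosomal genes were lower in HEY1-3KR KI. Of the 42 members, 29 fell, 5 rose and 8 did not pass the test (limma on log2(FPKM + 1), Benjamini-Hochberg adjusted p below 0.05 over 11427 tested genes). Among all tested genes 23.4% were called lower and 29.9% called higher, 53.2% in all. That balance turned with the scaling: 3413 genes were higher and 2671 lower as reported, 3018 and 3096 after median-of-ratios scaling, and 2917 and 3284 after quantile normalization, with 28 or 29 members lower each time. The median log2 fold change of the members was -0.27 and that of all tested genes 0.02. The falls were modest: by mean FPKM they ranged from 1.11-fold (Cd63) to 1.9-fold (Gaa), and 3 of the 29, Gaa, Atp6v1h and Asah1, were at least 1.5-fold. In 36 of the 42 members the 3 libraries of each genotype did not overlap, as in 61.2% of all tested genes. Replicates lay close together, with a median coefficient of variation over the members of 3.16% in HEY1-3KR KI and 2.22% in HEY1-WT KI. By class, 12 of 18 hydrolases, 5 of 6 membrane proteins, 11 of 12 V-ATPase members, 1 of 3 luminal non-enzymes and 0 of 3 TFEB family factors fell. In bulk samples fewer cells of a type and less RNA per cell cannot be told apart.

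**Figure D1:**
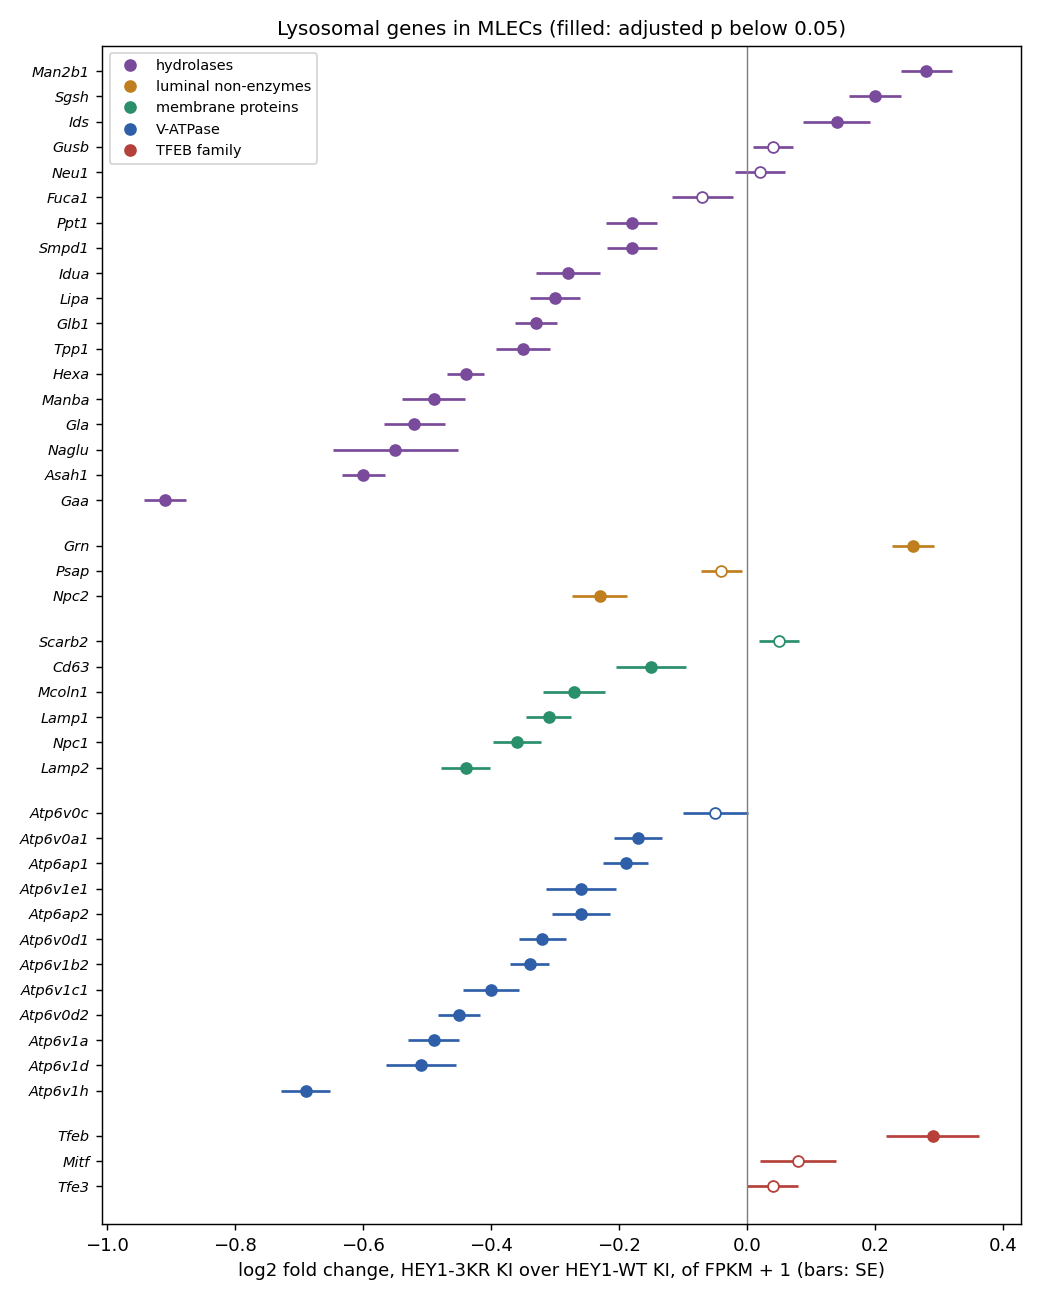
Each point is the log2 fold change (HEY1-3KR KI over HEY1-WT KI, on FPKM + 1) of 1 lysosomal gene, with bars for its SE, grouped by class. Points left of 0 are lower in HEY1-3KR KI, filled points passed the test, and the largest fall is that of Gaa at -0.91.

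The promoters of several members carry the E-box core, and the sequences before an annotated start of 6 of them are shown because they hold the letters that TFEB family factors and HEY proteins are known to bind. The RefSeq promoter table (GRCm38.p6, which corresponds to mm10) gave windows of 250 bases before to 50 bases after the annotated start for 36 of the 42 members, 44 windows in all. For 25 of the 36 the annotated start of a window was the outer end of the RefSeq gene. For 11, Atp6v1a among them, each such start lay further inside, from 4 bases (Naglu) to 13114 (Cd63) and 20749 (Ids). The printed Atp6v1a stretch thus lies within the annotated gene, before a start 443 bases from its outer end, whereas the other 5 lie just outside their genes. The 250 bases before the start are printed 5′ to 3′ on the gene's strand with each CACGTG in capitals, for Gaa (acid alpha-glucosidase, chr11:119267713-119267962, plus strand), Gla (alpha-galactosidase A, chrX:134601006-134601255, minus strand), Lamp1 (chr8:13158911-13159160, plus strand), Mcoln1 (chr8:3500269-3500518, plus strand), Atp6v1a (chr16:44139260-44139509, minus strand) and Sgsh (sulfamidase, chr11:119355511-119355760, minus strand).
Gaa: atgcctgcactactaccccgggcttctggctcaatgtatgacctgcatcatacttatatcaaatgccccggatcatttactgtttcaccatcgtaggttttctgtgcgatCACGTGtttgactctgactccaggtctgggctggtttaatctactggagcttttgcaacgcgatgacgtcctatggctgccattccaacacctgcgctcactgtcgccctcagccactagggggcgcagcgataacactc
Gla: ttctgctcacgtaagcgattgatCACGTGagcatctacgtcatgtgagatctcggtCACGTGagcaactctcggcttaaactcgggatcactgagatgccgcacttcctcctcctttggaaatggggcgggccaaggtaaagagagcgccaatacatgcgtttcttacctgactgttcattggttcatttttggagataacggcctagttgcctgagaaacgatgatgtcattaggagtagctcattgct
Lamp1: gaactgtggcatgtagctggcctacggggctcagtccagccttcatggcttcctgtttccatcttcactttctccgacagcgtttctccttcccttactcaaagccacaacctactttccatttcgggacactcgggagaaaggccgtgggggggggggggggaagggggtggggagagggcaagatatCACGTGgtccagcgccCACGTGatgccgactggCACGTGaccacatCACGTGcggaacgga
Mcoln1: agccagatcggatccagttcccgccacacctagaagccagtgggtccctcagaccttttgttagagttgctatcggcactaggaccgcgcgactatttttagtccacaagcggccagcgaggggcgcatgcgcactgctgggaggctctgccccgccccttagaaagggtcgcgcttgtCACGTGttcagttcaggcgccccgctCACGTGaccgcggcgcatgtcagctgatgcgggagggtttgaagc
Atp6v1a: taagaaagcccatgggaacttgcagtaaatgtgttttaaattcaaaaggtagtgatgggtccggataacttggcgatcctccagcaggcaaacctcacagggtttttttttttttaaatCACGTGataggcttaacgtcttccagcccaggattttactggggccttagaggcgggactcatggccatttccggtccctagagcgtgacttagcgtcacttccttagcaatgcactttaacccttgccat
Sgsh: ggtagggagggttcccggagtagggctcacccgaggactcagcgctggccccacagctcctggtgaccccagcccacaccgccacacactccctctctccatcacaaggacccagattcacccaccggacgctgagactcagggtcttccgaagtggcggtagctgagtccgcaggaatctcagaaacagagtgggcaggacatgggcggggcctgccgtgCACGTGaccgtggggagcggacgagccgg

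The first 5 of these genes fell and Sgsh rose. Lamp1 held the core 4 times, beginning 61, 45, 28 and 15 bases before the start, and Gla and Mcoln1 held it at 2 places each. The whole windows were searched for 3 motifs on both strands. CACGTG, which reads the same on both strands, was found in 8.09% of the 27025 genes of the promoter table. This and the shares of genes below are not a matched background, because they also count genes beyond the 11427 tested here. Among members CACGTG was found in 9 of 36 (25%): Gaa, Naglu, Gla, Glb1, Sgsh, Lamp1, Mcoln1, Atp6v1a and Atp6v0d1. Of these 9, 8 fell and 1 rose, and of the 27 members without it 15 fell, 4 rose and 8 did not pass. The same core with T before and A after it, TCACGTGA, the centre of the CLEAR element, is contained in the first motif and was found in Gla, Mcoln1, Atp6v1a and Atp6v0d1, 4 of 36 members (11.1%) against 1.12% of genes, and all 4 fell. CACGCG, a variant box known from HEY proteins, reads as CGCGTG on the other strand. It was found in Manba and Atp6v0d1, 2 of 36 members (5.56%) against 10.5% of genes. Both fell, and of the 34 members without it 21 fell, 5 rose and 8 did not pass. Cd63 and Ids count among the members without each motif. Their windows lay far inside the gene, so the bases at its outer end were not searched. A match is a run of letters and not a measured binding site.

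**Figure D2:**
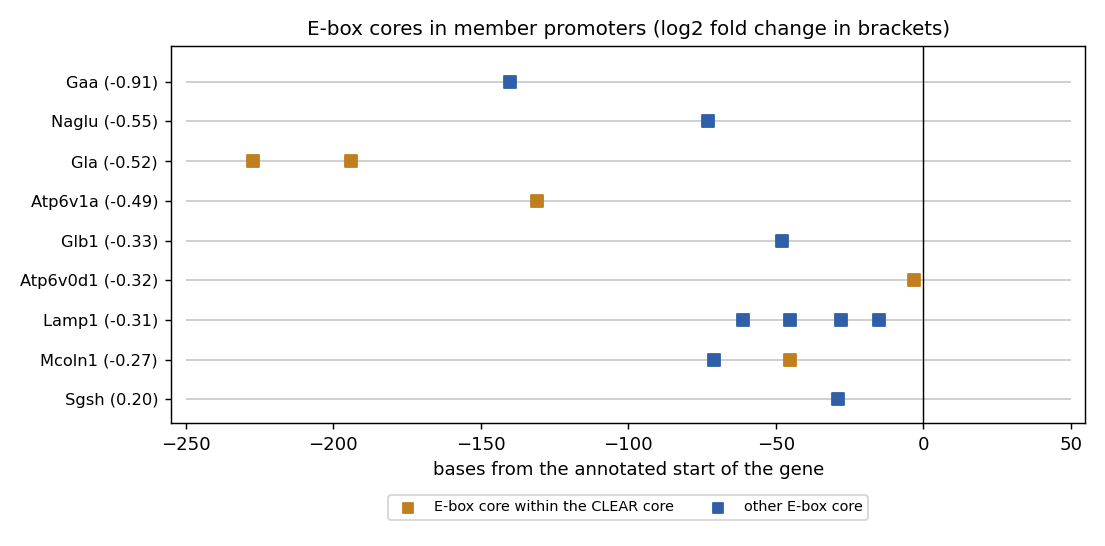
Positions of CACGTG cores (first base, in bases from the annotated start, negative before it) in the promoter windows of the 9 lysosomal genes that hold one, ordered by log2 fold change. Orange squares mark cores with T before and A after, in Gla, Atp6v1a, Atp6v0d1 and Mcoln1, and blue squares the other cores, of which Lamp1 has 4.

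Acid hydrolases fell in 12 of 18 cases and rose in 3. Gaa, which digests lysosomal glycogen, read 42.3, 41.0 and 42.2 FPKM in HEY1-3KR KI, against 79.0, 81.2 and 78.6 FPKM in HEY1-WT KI. The groups were far apart, with a log2 fold change of -0.91 ± 0.0324 (SE; limma adjusted p = 1.02e-07). Asah1, acid ceramidase, read 60.5, 57.3 and 58.1 FPKM in HEY1-3KR KI, against 90.1, 88.8 and 89.8 FPKM in HEY1-WT KI, a log2 fold change of -0.60 ± 0.0334 (limma adjusted p = 1.22e-06). Naglu, which removes N-acetylglucosamine from heparan sulfate, read 20.2, 20.1 and 23.7 FPKM in HEY1-3KR KI, against 37.1, 29.8 and 28.7 FPKM in HEY1-WT KI. All 3 HEY1-3KR KI libraries were below all 3 HEY1-WT KI libraries, but the spread was wide, with 1 HEY1-WT KI library above the others (log2 fold change -0.55 ± 0.0975, limma adjusted p = 0.00141). Hexa, the alpha subunit of beta-hexosaminidase and the most abundant hydrolase of the set, read 161, 160 and 158 FPKM in HEY1-3KR KI, against 218, 217 and 216 FPKM in HEY1-WT KI.

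The other 8 hydrolases that fell included Gla, which cleaves globotriaosylceramide (11.3 ± 0.574 and 16.7 ± 0.594 FPKM in HEY1-3KR KI and HEY1-WT KI; SD, n = 3 each), Glb1, the beta-galactosidase of GM1 ganglioside (27.7 ± 0.494 and 35.1 ± 0.253 FPKM in the same order), and Smpd1, acid sphingomyelinase (18 ± 0.39 and 20.6 ± 0.629 FPKM). Lipa, the lysosomal acid lipase that frees cholesterol and fatty acids, averaged 30 ± 1.24 FPKM in HEY1-3KR KI and 37.3 ± 0.656 FPKM in HEY1-WT KI. Tpp1, tripeptidyl peptidase 1, and Ppt1, a palmitoyl-protein thioesterase, both known from neuronal ceroid lipofuscinosis, fell by 0.35 and 0.18 on the log2 scale. Idua, alpha-L-iduronidase, which like Naglu acts on heparan sulfate, fell (6.55 ± 0.233 FPKM in HEY1-3KR KI and 8.17 ± 0.409 FPKM in HEY1-WT KI), whereas the heparan sulfatase Sgsh rose. Sgsh read 7.9, 7.9 and 7.96 FPKM in HEY1-3KR KI, against 6.86, 6.62 and 6.76 FPKM in HEY1-WT KI, a log2 fold change of 0.20 ± 0.0406 (limma adjusted p = 0.00269). Gaa and Sgsh lie 58030 bases apart on chromosome 11 (GRCm38) and had opposite directions, and Naglu and Atp6v0a1, 6370 bases apart on the same chromosome, both fell.

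Ids, iduronate 2-sulfatase, was the hydrolase with the weakest call. It read 10.9, 11 and 9.78 FPKM in HEY1-3KR KI, against 9.26, 9.71 and 9.4 FPKM in HEY1-WT KI, with the groups just apart (log2 fold change 0.14 ± 0.0522, limma adjusted p = 0.0444). Its call was lost without HEY1-3KR KI replicate 1 or 2 (limma adjusted p = 0.138 and 0.129) and without HEY1-WT KI replicate 1, 2 or 3 (limma adjusted p = 0.11, 0.0606 and 0.104). The mannosidases differed in direction: Man2b1, the lysosomal alpha-mannosidase, read 28.3, 28.7 and 27.0 FPKM in HEY1-3KR KI, against 22.2, 23.5 and 22.7 FPKM in HEY1-WT KI, with every HEY1-3KR KI library higher (log2 fold change 0.28 ± 0.04, limma adjusted p = 3.69e-04). Manba, the beta-mannosidase, fell to 5.98 ± 0.259 FPKM in HEY1-3KR KI, against 8.79 ± 0.36 FPKM in HEY1-WT KI. Gusb (beta-glucuronidase), Neu1 (the lysosomal sialidase) and Fuca1 (alpha-L-fucosidase) did not pass, with log2 fold changes of 0.04, 0.02 and -0.07. Reads from an overlapping partner could enter some values, because the handling of strand is not given. Sgsh shares 955 exonic bases with Card14 on the other strand (0.0739 and 0.131 FPKM in HEY1-3KR KI and HEY1-WT KI), Hexa 255 with Tmem202 (0.683 and 1.69 FPKM) and Idua 124 with Dgkq (3.04 and 3.62 FPKM) and 141 with Slc26a1 (0.11 and 0.214 FPKM). Glb1 shares 165 exonic bases with Tmppe on its own strand (3.75 FPKM in HEY1-3KR KI and 3.76 FPKM in HEY1-WT KI). Ppt1 (23.5 FPKM in HEY1-3KR KI and 26.7 FPKM in HEY1-WT KI) shares 129 exonic bases with a more abundant gene, Cap1, on the other strand. Cap1 averaged 173 FPKM in HEY1-3KR KI and 180 FPKM in HEY1-WT KI, and its part in the fall of Ppt1 was not tested.

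The 3 luminal proteins that are not enzymes each took another course. Psap, the precursor of the saposins that help hydrolases reach sphingolipids, was the most abundant member and read 1791, 1797 and 1770 FPKM in HEY1-3KR KI, against 1883, 1828 and 1815 FPKM in HEY1-WT KI. Its groups did not overlap, but it did not pass the test (log2 fold change -0.04, limma adjusted p = 0.276), and under quantile normalization its sign turned and it was called higher (0.206, limma adjusted p = 2.33e-04). Grn, progranulin, a secreted and lysosomal glycoprotein, read 263, 251 and 253 FPKM in HEY1-3KR KI, against 217, 210 and 213 FPKM in HEY1-WT KI, and rose by 0.26 ± 0.0329 on the log2 scale (limma adjusted p = 1.90e-04). Npc2, which hands cholesterol to NPC1, read 75.0, 70.0 and 75.5 FPKM in HEY1-3KR KI, against 90.0, 83.4 and 86.2 FPKM in HEY1-WT KI, and fell (log2 fold change -0.23, limma adjusted p = 0.00178).

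Of the 6 membrane proteins, 5 fell and none rose. Lamp1 and Lamp2 encode the heavily glycosylated proteins that coat the inside of the lysosomal membrane. Lamp1, the most abundant of the 6, read 451, 445 and 435 FPKM in HEY1-3KR KI, against 567, 548 and 533 FPKM in HEY1-WT KI, and Lamp2 read 32.4, 31.6 and 30 FPKM in HEY1-3KR KI, against 43.3, 42.7 and 42.2 FPKM in HEY1-WT KI. No library of HEY1-3KR KI reached the lowest HEY1-WT KI library for either gene, and the log2 fold changes were -0.31 ± 0.0349 and -0.44 ± 0.0382 (limma adjusted p = 9.89e-05 and 2.00e-05). Npc1, the membrane transporter that exports cholesterol from lysosomes, read 15.4, 15.1 and 15.1 FPKM in HEY1-3KR KI, against 19.2, 20.4 and 19.7 FPKM in HEY1-WT KI (log2 fold change -0.36 ± 0.0377, limma adjusted p = 6.12e-05). It shares 511 exonic bases with Rmc1 on the other strand, which averaged 5.51 FPKM in HEY1-3KR KI and 5.95 FPKM in HEY1-WT KI. Mcoln1, the calcium channel TRPML1, averaged 6.18 ± 0.154 FPKM in HEY1-3KR KI and 7.68 ± 0.381 FPKM in HEY1-WT KI and fell (limma adjusted p = 0.00147). Cd63, a tetraspanin of late endosomes and of endothelial storage granules, read 141, 134 and 147 FPKM in HEY1-3KR KI, against 164, 144 and 162 FPKM in HEY1-WT KI. Its groups overlapped and its call was weak (log2 fold change -0.15, limma adjusted p = 0.0482). That call was lost without HEY1-3KR KI replicate 1 or 2 (limma adjusted p = 0.103 and 0.148) and without HEY1-WT KI replicate 1 or 3 (limma adjusted p = 0.145 for each). Scarb2, the receptor LIMP-2 that carries glucocerebrosidase to lysosomes, averaged 37.6 ± 0.465 FPKM in HEY1-3KR KI and 36.3 ± 0.256 FPKM in HEY1-WT KI and did not pass (limma adjusted p = 0.222).

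V-ATPase genes fell in 11 of 12 cases, by 1.13-fold to 1.69-fold. All 6 listed V1 subunits fell (median log2 fold change -0.45), as did 3 of 4 V0 subunits (median -0.24) and both accessory proteins, Atp6ap1 and Atp6ap2 (median -0.23). Atp6v1h, the regulatory H subunit of V1 and the lowest V-ATPase member in FPKM, read 8.1, 8.14 and 7.81 FPKM in HEY1-3KR KI, against 13.5, 13.5 and 13.5 FPKM in HEY1-WT KI. The gap was wide beside the spread (log2 fold change -0.69 ± 0.0387, limma adjusted p = 1.32e-06). Atp6v1d, a subunit of the central rotor, read 16.6, 16 and 17.5 FPKM in HEY1-3KR KI, against 25.3, 22.4 and 24.8 FPKM in HEY1-WT KI (log2 fold change -0.51 ± 0.0547, limma adjusted p = 7.08e-05). Atp6v1a, the catalytic subunit that binds ATP, read 32.0, 32.8 and 30.5 FPKM in HEY1-3KR KI, against 43.8, 46.1 and 45.5 FPKM in HEY1-WT KI, again without overlap (log2 fold change -0.49 ± 0.0399, limma adjusted p = 1.22e-05). Atp6v1b2, its partner in the catalytic ring, averaged 40.5 ± 0.0461 FPKM in HEY1-3KR KI and 51.7 ± 0.771 FPKM in HEY1-WT KI. Atp6v1c1 and Atp6v1e1, subunits of the stalks that hold the ring in place, fell by 0.40 and 0.26 on the log2 scale.

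In the V0 part, Atp6v0c, the proton-carrying ring subunit and the most abundant V-ATPase member, read 104, 94.2 and 102 FPKM in HEY1-3KR KI, against 110, 102 and 99.5 FPKM in HEY1-WT KI. These ranges overlapped and the gene did not pass (log2 fold change -0.05, limma adjusted p = 0.429). It has 2 annotated pseudogenes, with which reads could be shared, and Cd63 among the membrane proteins also has an annotated pseudogene. Atp6v0d1, the widely expressed d subunit, averaged 67.6 ± 2.6 FPKM in HEY1-3KR KI and 84.5 ± 0.382 FPKM in HEY1-WT KI. Atp6v0d2, the d isoform known from osteoclasts and macrophages, read 38.3, 38.6 and 37.6 FPKM in HEY1-3KR KI, against 52.3, 51.5 and 53.5 FPKM in HEY1-WT KI, and fell by 0.45 ± 0.0326 on the log2 scale (limma adjusted p = 6.40e-06). Atp6v0a1, the a1 isoform of the membrane arm, averaged 17.1 ± 0.548 FPKM in HEY1-3KR KI and 19.3 ± 0.0831 FPKM in HEY1-WT KI. Atp6ap2, the prorenin receptor, and Atp6ap1, an assembly partner of V0, fell by 0.26 and 0.19 on the log2 scale.

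**Figure D3:**
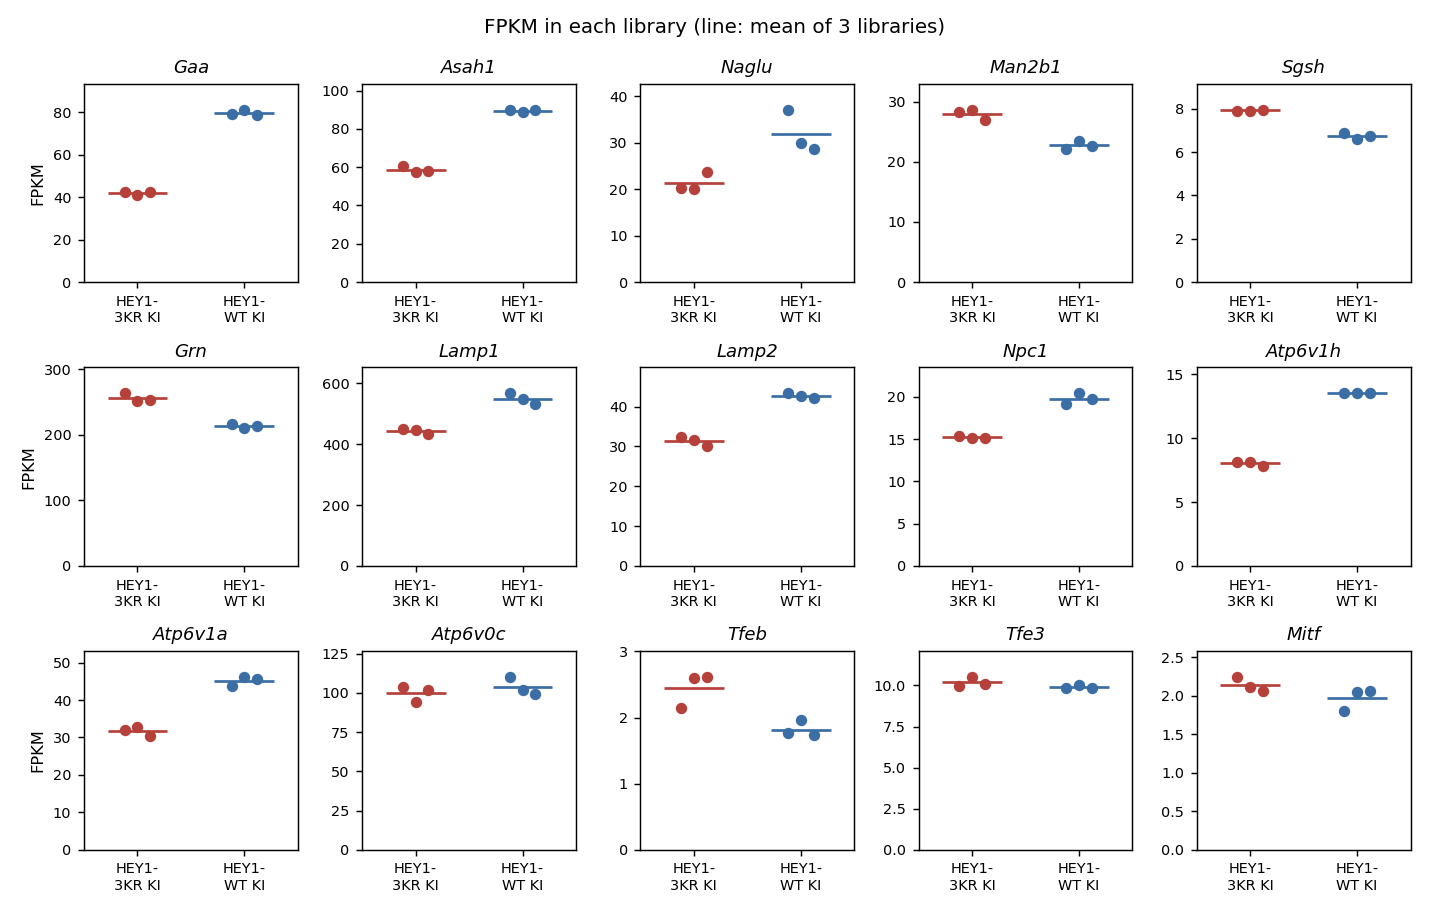
FPKM of 15 lysosomal genes in each of the 3 HEY1-3KR KI and 3 HEY1-WT KI libraries, with a line at the mean of each genotype and axes from 0. The genotypes separate for Gaa, Asah1, Lamp2, Atp6v1h and Atp6v1a, which are lower in HEY1-3KR KI, and for Man2b1, Sgsh, Grn and Tfeb, which are higher, and overlap for Atp6v0c, Tfe3 and Mitf.

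Transcripts of the TFEB family did not fall. Tfeb read 2.14, 2.6 and 2.61 FPKM in HEY1-3KR KI, against 1.76, 1.96 and 1.73 FPKM in HEY1-WT KI. All HEY1-3KR KI libraries were higher, and the log2 fold change was 0.29 ± 0.0721 (limma adjusted p = 0.00855), at a low level where FPKM + 1 understates the 1.35-fold ratio of means. Tfe3, the most abundant of the 3, read 9.94, 10.5 and 10.1 FPKM in HEY1-3KR KI, against 9.82, 10.0 and 9.86 FPKM in HEY1-WT KI (log2 fold change 0.04, limma adjusted p = 0.479). Mitf read 2.24, 2.11 and 2.06 FPKM in HEY1-3KR KI, against 1.8, 2.05 and 2.06 FPKM in HEY1-WT KI (log2 fold change 0.08, limma adjusted p = 0.295). Both had overlapping groups and did not pass. Tfec, the remaining factor of the family, known from macrophages, rose to 3.93 ± 0.312 FPKM in HEY1-3KR KI, against 2.73 ± 0.226 FPKM in HEY1-WT KI (limma adjusted p = 0.00109). Transcript levels do not measure whether these factors are in the nucleus.

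Summed over a class, hydrolase FPKM was 600, 595 and 595 in HEY1-3KR KI, against 770, 771 and 766 in HEY1-WT KI, a ratio of 0.775. Membrane proteins summed to 684, 670 and 672 FPKM in HEY1-3KR KI, against 837, 799 and 800 FPKM in HEY1-WT KI, and V-ATPase genes to 510, 490 and 501 FPKM, against 618, 600 and 607 FPKM, ratios of 0.831 and 0.823. The TFEB family summed to 14.3, 15.2 and 14.8 FPKM in HEY1-3KR KI and to 13.4, 14.0 and 13.6 FPKM in HEY1-WT KI. These sums are described without a test. All 42 genes together held 1.48% ± 0.0192 of summed FPKM in HEY1-3KR KI and 1.65% ± 0.0187 in HEY1-WT KI (SD, n = 3 each), of which Psap alone made up a large part.

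Cell type markers were mostly higher in HEY1-3KR KI in the same libraries. Their counts stand beside 29.9% of all tested genes called higher and 23.4% called lower. All 18 macrophage and monocyte markers rose, among them Csf1r, the receptor of macrophage colony-stimulating factor, at 40.1 ± 1.27 FPKM in HEY1-3KR KI and 13.7 ± 0.226 FPKM in HEY1-WT KI, and Adgre1 (F4/80) at 30.4 ± 1.02 FPKM and 22.1 ± 0.913 FPKM in the same order. Of 15 pan-endothelial markers 14 rose, and all 9 tested fibroblast markers rose. Of 11 tested lung epithelial markers 9 rose, with a summed FPKM of 440 to 652 in HEY1-3KR KI and 121 to 227 in HEY1-WT KI. That sum includes the variable Scgb1a1, at 258, 104 and 76.5 FPKM in HEY1-3KR KI and 18.8, 31.7 and 112 FPKM in HEY1-WT KI. Scgb1a1 overlapped between genotypes and did not pass (limma adjusted p = 0.0568). Smooth muscle and pericyte markers had 2 rises and 3 falls among 9 tested and summed to 1150 to 1185 FPKM in HEY1-3KR KI and 1109 to 1133 FPKM in HEY1-WT KI. None of these lists was lower in sum in HEY1-3KR KI, and no listed marker of these 5 lists was at 0 in all libraries. Of 10 osteoclast and fused-macrophage markers, which share Atp6v0d2's known setting, 6 were tested: Mmp9, Acp5, Tnfrsf11a, Itgb3 and Nfatc1 rose and Ctsk (cathepsin K) fell. Their summed FPKM was 201 to 211 in HEY1-3KR KI and 198 to 202 in HEY1-WT KI, and the 4 untested markers were low. Dcstamp and Calcr, defining genes of fused cells and osteoclasts, averaged 0.00378 and 0.00396 FPKM in HEY1-3KR KI and were listed at 0 in all HEY1-WT KI libraries. Ocstamp, another fusion gene, read 0.315, 0.298 and 0.36 FPKM in HEY1-3KR KI, against 0.0223, 0.0367 and 0.0555 FPKM in HEY1-WT KI, without overlap, and Oscar averaged 0.101 FPKM in HEY1-3KR KI and 0.118 FPKM in HEY1-WT KI. The part that cell makeup has in the lysosomal values was not tested.

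**Figure D4:**
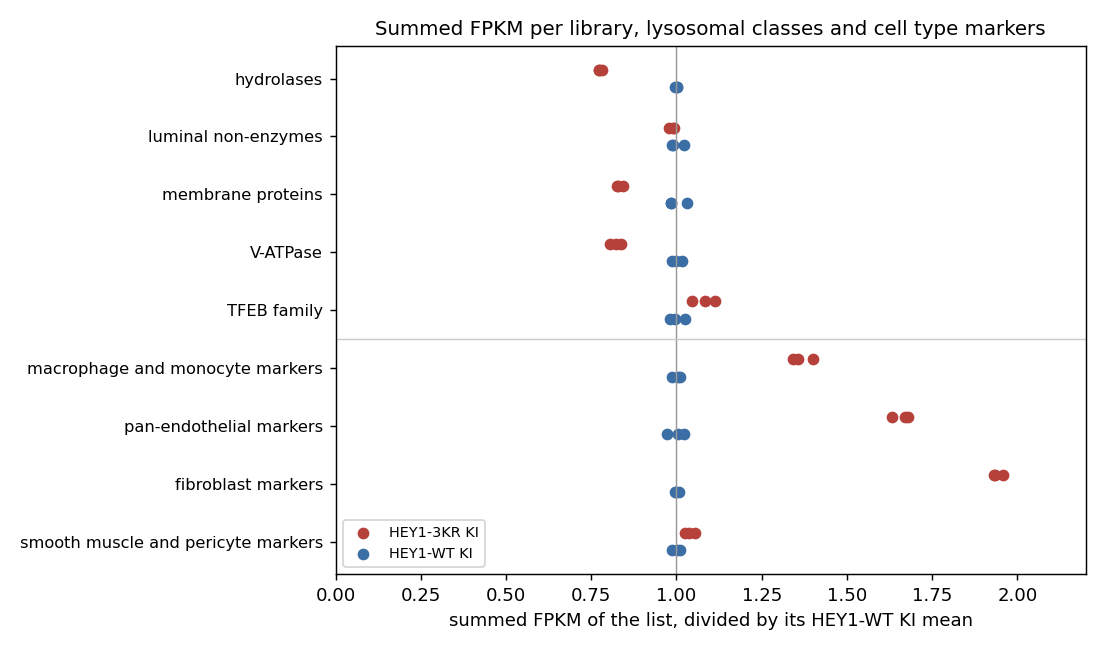
Summed FPKM of each lysosomal class (above the line) and of 4 cell type marker lists (below it) in each library, divided by the HEY1-WT KI mean of that list. HEY1-3KR KI libraries lie left of 1 for hydrolases, membrane proteins and V-ATPase genes (ratios of means 0.775, 0.831 and 0.823) and right of 1 for macrophage, pan-endothelial and fibroblast markers (1.37, 1.66 and 1.94). The macrophage sum is mostly Lyz2, which rose 1.11-fold. By median log2 fold change these marker lists stand at 0.98, 0.76 and 0.68, in the same order.

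Other genes of the pathway came from 6 lists that exclude the members, and their counts stand beside the 23.4% of all tested genes called lower and 29.9% called higher. Of 24 further hydrolases and activators 13 fell, 4 rose and 7 did not pass (median log2 fold change -0.15). Aga, which cleaves the sugar link of glycoproteins, fell to 15.6 ± 0.949 FPKM in HEY1-3KR KI, against 25.6 ± 1.16 FPKM in HEY1-WT KI, a log2 fold change of -0.69. Acp5, the tartrate-resistant acid phosphatase, rose 2.01-fold to 89.5 ± 0.959 FPKM in HEY1-3KR KI, against 44.4 ± 1.26 FPKM in HEY1-WT KI, and Gm2a, the GM2 activator, and Smpdl3a rose by 0.49 and 0.40 on the log2 scale. Of 24 tested further membrane proteins 9 fell, 6 rose and 9 did not pass (median -0.08). The channel Mcoln3 fell to 3.21 ± 0.199 FPKM in HEY1-3KR KI, against 5.95 ± 0.138 FPKM in HEY1-WT KI, and Tmem192 and Laptm4b fell by 0.46 and 0.36 on the log2 scale. Among the 6 that rose were Lamp3, which marks dendritic cells and alveolar type II cells, at 2.09 ± 0.229 FPKM in HEY1-3KR KI and 0.278 ± 0.0513 FPKM in HEY1-WT KI, Laptm5 of leukocytes and Slc11a1 of macrophage phagosomes. Of 10 tested further V-ATPase genes 5 fell, led by Atp6v0e2 (-0.93), Atp6v1f (-0.38) and Atp6v0b (-0.36). Tcirg1, the a3 isoform of osteoclasts and macrophages, and Ccdc115, an assembly factor, rose, by 0.23 and 0.25.

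Sorting, nutrient sensing and autophagy genes are given beside the same background of 23.4% lower and 29.9% higher. Of 17 sorting genes 6 fell, 1 rose and 10 did not pass. The retromer subunits Vps26a and Vps35, which recycle sorting receptors, fell by 0.49 and 0.38 on the log2 scale, and Igf2r, the cation-independent mannose 6-phosphate receptor, averaged 22.8 ± 1.52 FPKM in HEY1-3KR KI and 29.3 ± 1.13 FPKM in HEY1-WT KI. Ap1b1, an adaptor subunit, rose by 0.38. Of 22 tested genes of the Ragulator, RAG, folliculin and mTORC1 list 7 fell, 2 rose and 13 did not pass. Rragd, a RAG GTPase and a known TFEB family target, fell to 1.34 ± 0.0669 FPKM in HEY1-3KR KI, against 4.17 ± 0.0903 FPKM in HEY1-WT KI (log2 fold change -1.14, limma adjusted p = 3.89e-07), and Fnip2 and Flcn, the folliculin complex that acts on RagC and RagD, fell by 0.46 and 0.33. The kinase gene Mtor did not pass, with a log2 fold change of -0.00. The 2 that rose were Tfec and Ppp3cb, a calcineurin subunit. Of 24 genes of the autophagy list, in which Gpnmb was also placed, 10 fell, 1 rose and 13 did not pass (median -0.13). Sqstm1, the cargo receptor p62, read 295 ± 4.03 FPKM in HEY1-3KR KI and 582 ± 8.29 FPKM in HEY1-WT KI (log2 fold change -0.98, limma adjusted p = 5.04e-08), Optn, another cargo receptor, fell by 0.66, and Gpnmb, a glycoprotein of lysosome-rich macrophages, fell to 196 ± 2.1 FPKM in HEY1-3KR KI, against 271 ± 3.11 FPKM in HEY1-WT KI. The kinase Ulk1, which starts autophagy, was the gene that rose (0.22). Cathepsins and legumain, the proteases left out of the set, had 5 falls and 5 rises among 13 tested genes (median -0.08). Ctsk, Ctsl and Ctsd led the falls at -0.63, -0.54 and -0.22, and Ctsc, Ctsh and Ctse led the rises at 0.99, 0.98 and 0.78. The difference between these lists and the 42 members was not tested.

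**Figure D5:**
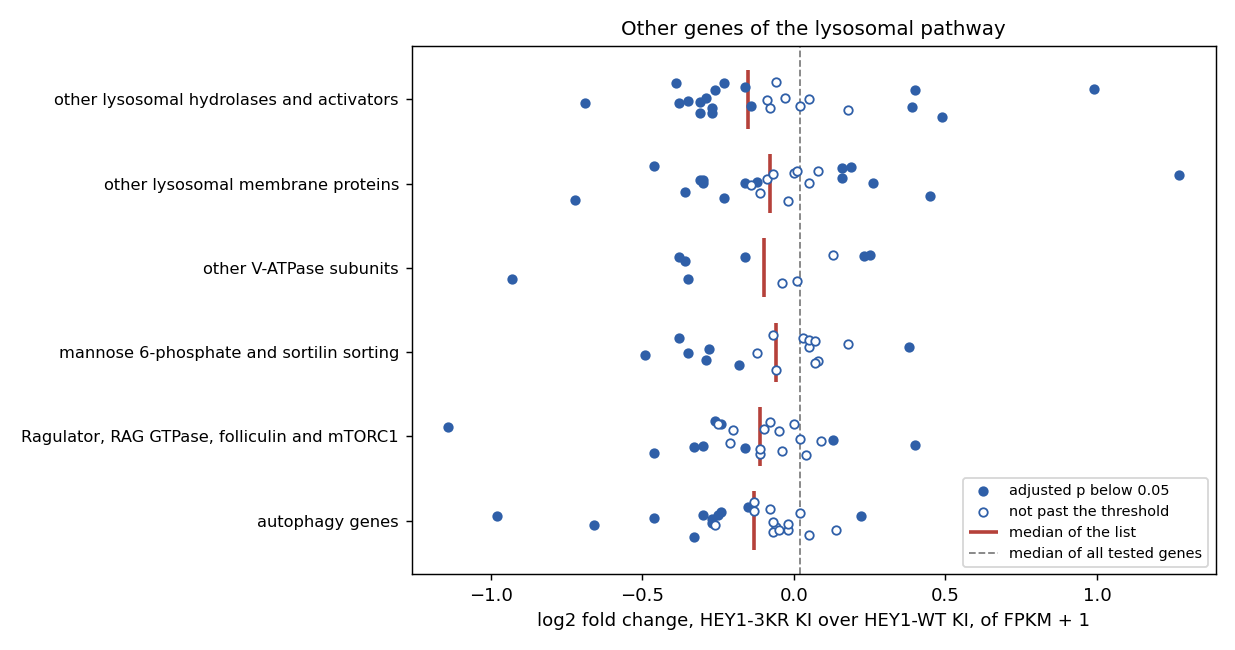
Log2 fold changes (HEY1-3KR KI over HEY1-WT KI, on FPKM + 1) of genes in 6 further lists of the lysosomal pathway, 1 point per tested gene, filled where it passed the test. Red bars are list medians, from -0.15 to -0.06, and the dashed line is the median of all tested genes at 0.02.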

How the data were processed

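The authors deposited FPKM for 6 MLEC libraries, 3 per genotype, in 1 table. Tools named in the submitters' processing notes are FastQC 0.19.7, HISAT2 2.1.0, SAMtools 1.9, StringTie 1.3.3b and the build mm10. The sources used here name no annotation or strand setting. Because FPKM are relative to a library's total, a rise of abundant genes lowers the rest. The 17463 entries carried 17450 symbols, and where a symbol stood on several entries (12 symbols) the entry of highest mean was kept. Each member had 1 entry.

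Read depth is unknown. Low FPKM values multiplied by transcript length were within 0.1 of a whole multiple of the best-fitting step in only 46.9% to 58.5% of cases (20% if spread evenly), so whole reads could not be recovered and counts were not tested. No 2 libraries held identical values.

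The 11427 genes that reached 1 FPKM in 3 or more of the 6 libraries were tested on log2(FPKM + 1) by limma 3.58.1 (R 4.3.3; variance trend, two-sided; no covariates), with p-values adjusted by Benjamini-Hochberg and called below 0.05, after a check on simulated data. Log2 fold changes are HEY1-3KR KI minus HEY1-WT KI and understate changes of low genes. Folds are ratios of mean FPKM, and errors are SD over 3 libraries unless called SE. Gene positions and promoters are from RefSeq on GRCm38.p6 and exon overlaps from GENCODE on GRCm38. The bases after the start matched a transcript in the printed direction for 35 of the 44 windows and in the other direction for 0. Lists (13 lists, 219 entries, 2 not in the table) give counts and medians with no set test. Alternatives varied the pseudocount, filter, scaling, variance model and replicate block, and left out each library.

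Values in every library were printed for the TFEB family, for the 3 called members with the largest change in each direction per class and for the member of highest mean. Cd63 and Atp6v0d2 were added after their values were seen, and the 6 printed promoters were chosen after the motif search. In other lists up to 3 called genes per direction were named by size (some are not reported here), and Mtor was added after its values were seen. Of the marker lists, defining markers were named. The members and lists were chosen with earlier results of these data known. Tables and figures were made in Python 3.11.15 (pandas 2.3.3, numpy 2.4.6, matplotlib 3.10.9).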

Additional observations from a re-analysis of the deposited data

How the results depend on the processing

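Of the 34 called members, all 34 kept their direction under the 13 alternatives and 32 kept their call, the exceptions being Ids and Cd63. Tfeb and Mitf were not among the 40 members tested with a mean of at least 5 FPKM, so that setting gave them no value. The members called lower numbered 28 or 29 and those called higher 4 or 5 under every alternative, against 29 and 5 as reported. With no filter on low values Ids and Cd63 had limma adjusted p of 0.0632 and 0.0888, without a variance trend 0.051 and 0.0753, with quantile normalization 0.14 and 0.0728, and Ids had 0.106 after median-of-ratios scaling. Signs turned for 3 members that had not passed: Neu1 (-0.0155 after median-of-ratios scaling, -0.00849 after quantile normalization, from -0.00774 without HEY1-3KR KI replicate 1 to 0.0363 without HEY1-3KR KI replicate 3), Psap (0.206) and Atp6v0c (0.0225), both after quantile normalization. The cause was not tested. Genes called among all tested numbered 6084, 4055 with a mean of at least 5 FPKM, where fewer genes (7195) were tested, and 5396 to 5671 with 1 library left out. Called genes of the 6 other lysosomal lists and the cathepsin and legumain list together numbered 76 and went from 68 to 80 over the alternatives. With the replicate number as a block, 6140 genes, 29 lower and 5 higher members were called. The numbers did not pair the libraries, with correlations of same-numbered deviations of -0.188, 0.253 and -0.273. Differently numbered libraries ranged from -0.243 to 0.38, the highest being HEY1-3KR KI replicate 3 with HEY1-WT KI replicate 1. A block by another matching was not fitted. Dividing class sums by a total without mt- genes and the 20 genes of highest mean raised every share. Hydrolases had 0.269% in HEY1-3KR KI and 0.351% in HEY1-WT KI, luminal non-enzymes 0.955% and 0.977%, membrane proteins 0.305% and 0.37%, V-ATPase genes 0.226% and 0.277%, the TFEB family 0.00667% and 0.00624%, and all members 1.76% and 1.98%, with the order of the genotypes as reported. The protein comparison planned for Atp6v0d1 and Atp6v0d2 and for the TFEB family was not run. Only 3 libraries per genotype limit the precision.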
